A study of Danio rerio with 18 samples.

Results

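The phototransduction and photoreceptor genes are the genes whose products turn light into an electrical signal in rods and cones, recover the visual pigment, or build and specify the photoreceptor cell. They were chosen by name, from a list of zebrafish gene names, 53 of which are described. The choice applied no measured value, but it was made with earlier results of these data known. Of the 53 names, 51 matched at least 1 gene of the count table and 2 (gngt1 and pde6a) did not, which gave 55 genes among the 31624 of the table. Of the 55, 50 had enough counts to be tested. The other 5 were opn1mw3, opn1mw4, opn1lw1, nrl and one of the GUCA1A genes (ENSDARG00000100747), each at no more than 4.94 CPM (counts per 1000000 counts of a library, after scaling) in any library. Symbols in capitals are those of the human ortholog, and where copies share one, the Ensembl ID tells them apart, because which zebrafish name each copy bears was not resolved.

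Whole AB zebrafish larvae were measured by mRNA sequencing in 18 libraries, each from 5 pooled larvae, in 6 groups of 3. The groups are the controls and the LPS-challenged larvae at 3 combinations of incubation and challenge temperature, namely 24 × 24 °C, 24 × 32 °C and 32 × 24 °C, with the incubation temperature first. LPS is the lipopolysaccharide of the bacterium Pseudomonas aeruginosa, given by immersion for 24 h, and the labels put its dose at 10 mg/L whereas the methods put it at 10 µg/L. Controls were immersed in distilled water with the same volume of phosphate-buffered saline. No group was fed, embryos of all groups had been raised in medium with methylene blue, and each challenge began 18 h after 75% of the larvae had reached first feeding. First feeding came earlier at 32 °C, so the 32 × 24 °C larvae were sampled 96 h after fertilization and the other larvae 171 h after it, a difference of 75 h. Counted from fertilization, this also placed the sampling of the 32 × 24 °C larvae about 3 h earlier in the day, in fish bred on 12 h of light a day. Larvae were brought to the challenge temperature from first feeding on. The 32 × 24 °C larvae were thus cooled and the 24 × 32 °C larvae warmed, whereas the 24 × 24 °C larvae were not shifted. Age, sampling hour and this cooling can therefore not be told apart from incubation temperature. The 24 × 24 °C and 24 × 32 °C larvae shared age in hours and sampling hour. Whether the warmed larvae were also at the same developmental stage is not known. The LPS pools were made from larvae still alive after the challenge, and mortality differed between the combinations.

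In darkness, cyclic GMP holds open cation channels in the outer segment of a photoreceptor. Light activates an opsin, the opsin activates the G protein transducin, and transducin releases phosphodiesterase 6 from its inhibitory subunit, so that cyclic GMP falls and the channels close. The response ends when an opsin kinase phosphorylates the pigment and an arrestin caps it, with recoverins and guanylate cyclase activators adjusting these steps to calcium, and the visual cycle returns 11-cis-retinal to the opsin. Rods and cones use separate copies of most of these proteins, and the zebrafish larva sees mainly with cones, of which it has ultraviolet, blue, green and red types.

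Markers of both cell types were counted in every library. Exceptions were the rod factor nrl, with 30 counts in all and none in 4 libraries, and the red cone opsin opn1lw1, with none in 2 libraries. The green cone opsins opn1mw3 and opn1mw4 had no count in 12 and 14 libraries. Among the rod markers, gnat1 was at 77.6 to 134 CPM and saga at 35.4 to 103 CPM, and among the cone markers opn1sw1 was at 1179 to 2920 CPM, gnat2 at 379 to 851 CPM and arr3a at 209 to 659.9 CPM. All libraries are of whole larvae, so fewer photoreceptors and less RNA per photoreceptor cannot be told apart. Library totals ran from 1868228 to 8261920 counts. At 32 × 24 °C, the control and the LPS library numbered 1 stood apart, with summed CPM of the cone genes of 10648 and 9339, above the 7399 and 8152 of the other controls and the 6460.1 and 8116 of the other LPS libraries. Counts of called genes are given with and without this pair where they differ by more than 1.5 times.

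Log2 fold changes are given with their standard error (SE) and with padj, the p-value of edgeR's quasi-likelihood test after Benjamini-Hochberg adjustment over the 15722 genes tested. The SE was derived from the log2 fold change and the F statistic of that test, and is approximate. A gene was called where padj was under 0.05 and the fold change was at least 1.5. By this rule, 15 of the 50 genes were called in at least 1 of 9 comparisons, with 26 calls in all, and in each of the 26 the libraries of the groups compared did not overlap. The 15 genes are 30% of those tested, against 9.66% of all genes tested, and 99% of the calls over all genes likewise had groups without overlap. That share was not computed over uncalled genes, so groups without overlap do not by themselves show a difference. Arrestins, a recoverin, transducin subunits, inhibitory subunits of phosphodiesterase 6 and opsin kinases were among the called genes, and several were called in more than 1 comparison. Comparisons that name the same group share its libraries, so calls of one gene in such comparisons are not independent. No call was made among the 6 channel genes, the 4 disc rim genes and the 3 guanylate cyclase activator genes tested, and a difference between the roles was not tested.

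**Figure D1:**
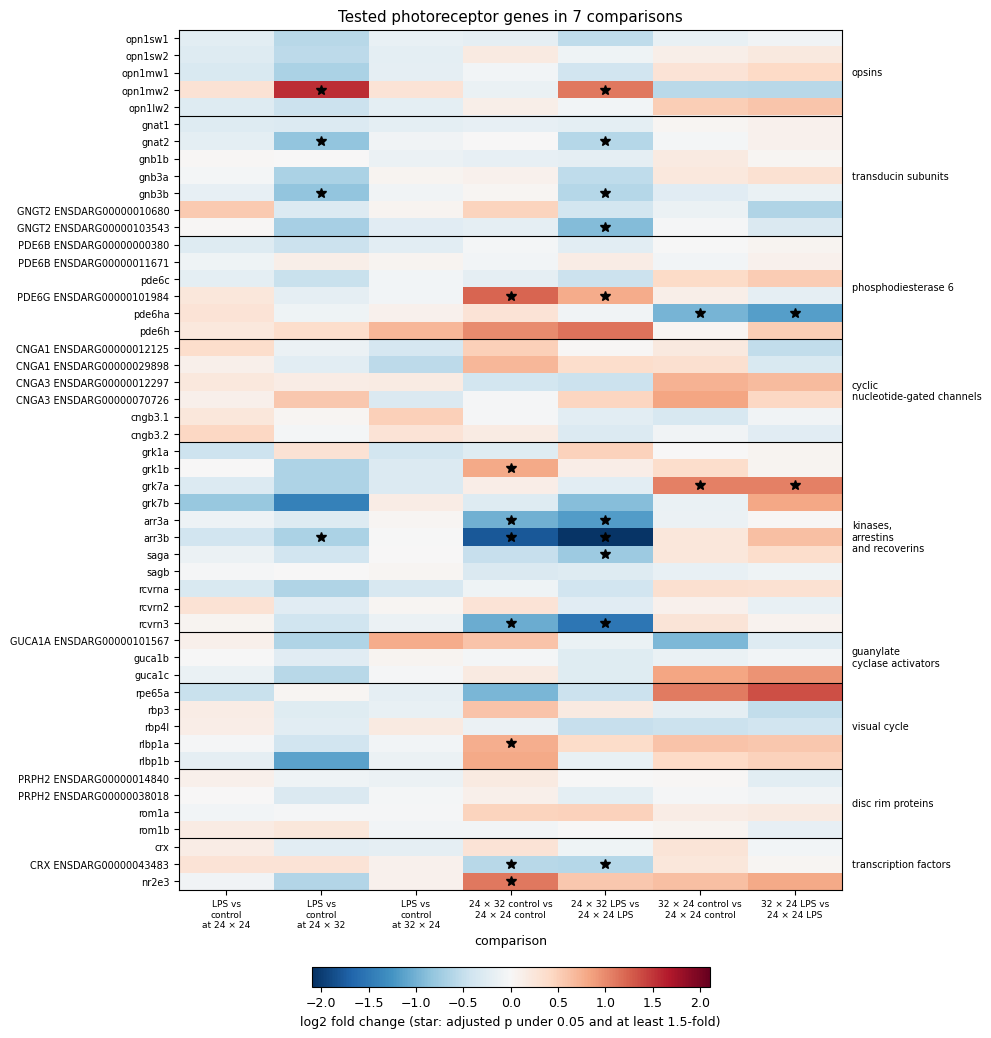
Log2 fold change of each tested photoreceptor gene (rows, in blocks by role) in 7 comparisons (columns), with red for higher and blue for lower in the group named first and a star where the gene was called. The stars of arr3a, arr3b, rcvrn3, PDE6G and CRX recur in both columns that compare challenge at 32 °C with 24 °C, and those of grk7a and pde6ha in both columns that compare incubation at 32 °C with 24 °C.

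The first comparison asked how the photoreceptor genes differed with the temperature of the challenge, 32 °C or 24 °C, when incubation had been at 24 °C. All larvae were of one age in hours after fertilization. Those at 32 °C had been warmed from first feeding on, and whether their developmental stage was the same was not tested. In the controls, 4 of the 50 genes were higher at 24 × 32 °C (8%, against 3.01% of all genes tested) and 4 were lower (8%, against 3.2%). In the LPS-challenged larvae, which are other libraries with the same temperature difference, 2 were higher (4%, against 1.62%) and 8 were lower (16%, against 1.48%). All 18 libraries share one fit, so the comparisons share the estimated spread though they share no library. Both cone arrestins, the recoverin gene rcvrn3, PDE6G and a CRX gene were called in the controls and again in the LPS-challenged larvae, each in the same direction.

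The cone arrestin gene arr3b, which in zebrafish serves mainly ultraviolet and blue cones, was at 320.4, 301 and 268 CPM in the 24 × 24 °C controls and at 93.7, 76.8 and 88.2 CPM in the 24 × 32 °C controls. In LPS-challenged larvae it was at 220.3, 227 and 225 CPM at 24 × 24 °C and at 65.7, 46.9 and 50.7 CPM at 24 × 32 °C. Every library challenged at 32 °C was thus below every library challenged at 24 °C, with a log2 fold change of -1.78 (SE 0.14, padj = 3.14e-07) in the controls and -2.05 (SE 0.15, padj = 4.37e-08) in the LPS-challenged larvae. Its paralog arr3a, which serves mainly green and red cones, was at 597, 635 and 608 CPM in the 24 × 24 °C controls and at 319, 297 and 294 CPM in the 24 × 32 °C controls. The corresponding LPS values were 494, 627 and 586 CPM and 285, 263 and 209 CPM. The groups again did not overlap, and arr3a fell by 1.02 on the log2 scale in the controls (SE 0.16, padj = 0.000604) and by 1.17 in the LPS-challenged larvae (SE 0.16, padj = 0.000162).

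The recoverin gene rcvrn3 encodes a calcium sensor of the family that restrains opsin kinases. It was at 708, 552 and 506 CPM in the 24 × 24 °C controls against 278, 308 and 277 CPM in the 24 × 32 °C controls. In LPS-challenged larvae the values were 630.1, 614 and 600.4 CPM and 245, 225 and 176 CPM. The log2 fold changes were -1.03 (SE 0.14, padj = 0.000118) and -1.51 (SE 0.14, padj = 2.62e-06), with no overlap between the groups. The calls of arr3a, arr3b and rcvrn3 held in both sets of larvae without any 1 of the 18 libraries and under every other alternative.

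The rod arrestin gene saga was at 71.9, 74.0 and 72.9 CPM in the 24 × 24 °C LPS larvae and at 35.4, 38.4 and 55.1 CPM in the 24 × 32 °C LPS larvae, a log2 fold change of -0.76 (SE 0.19, padj = 0.0273). The controls, at 75.1, 88.1 and 75.8 CPM and 38.1, 75.6 and 58.0 CPM, overlapped and gave -0.48 (SE 0.18, padj = 0.112). The call in LPS larvae was lost without any 1 of the 24 × 24 °C LPS libraries or without 24 × 32 °C LPS replicate 1 or 2 (padj of 0.0596 to 0.108). For sagb, the other rod arrestin gene, the log2 fold changes were -0.31 and -0.27, and neither was called. Of the 11 kinase, arrestin and recoverin genes tested, 8 had a negative log2 fold change in the controls and 9 in the LPS-challenged larvae. Over all 15722 genes tested, 7811 and 7350 were negative, and a trend of this role was not tested.

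In the same libraries, the transcript of cone transducin did not show this difference in the controls. The gene gnat2, which encodes the alpha subunit of cone transducin, was at 802, 683 and 642 CPM in the 24 × 24 °C controls and at 608, 752 and 785 CPM in the 24 × 32 °C controls, values that overlap, with a log2 fold change of 0.01 (SE 0.15). None of the 5 cone opsin genes tested was called between these controls either, and their log2 fold changes ran from -0.19 to 0.19. The median over the 50 genes was -0.0036 in the controls, beside 0.00 over all genes tested.

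**Figure D2:**
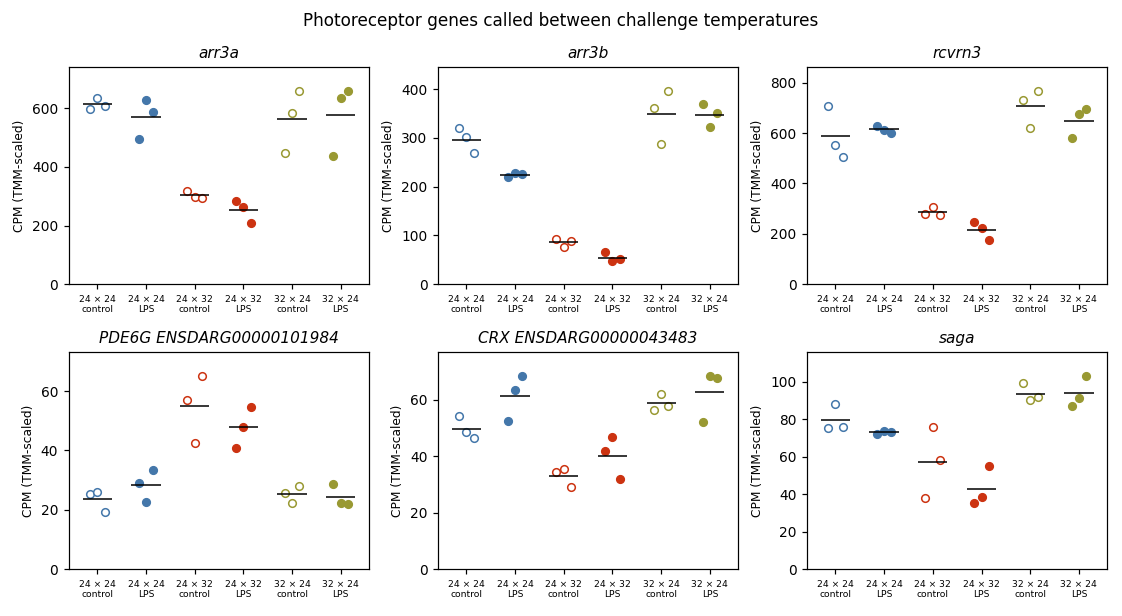
CPM (vertical axis, from 0) of 6 photoreceptor genes in each of the 18 libraries, by group, with open circles for controls, filled circles for LPS-challenged larvae and a line at the mean of the 3 libraries. The libraries challenged at 32 °C (red) lie below those challenged at 24 °C (blue) for arr3a, arr3b and rcvrn3 and above them for PDE6G, while the controls overlap for saga.

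Of the genes that were higher at 24 × 32 °C, PDE6G (ENSDARG00000101984), the inhibitory gamma subunit of the rod phosphodiesterase, was at 25.4, 26.1 and 19.2 CPM in the 24 × 24 °C controls and at 57.1, 42.6 and 65.2 CPM in the 24 × 32 °C controls. In LPS-challenged larvae it was at 29.0, 22.6 and 33.4 CPM and 40.7, 48.0 and 54.7 CPM. Neither pair of groups overlapped, and the log2 fold changes were 1.22 (SE 0.18, padj = 0.00039) and 0.79 (SE 0.19, padj = 0.0224). The call in the controls held without any 1 library, whereas that in LPS larvae was lost without 24 × 24 °C LPS replicate 1 or 2 or 24 × 32 °C LPS replicate 2 or 3 (padj of 0.0626 to 0.139). The catalytic genes of the rod enzyme did not follow it. The 2 genes with the symbol PDE6B had log2 fold changes of -0.04 and -0.05 in the controls and -0.22 and 0.15 in the LPS-challenged larvae, and none was called. The gene pde6h, of the same gamma family, was low, at 1.92, 3.73 and 2.23 CPM against 5.60, 5.37 and 4.80 CPM in the controls, and was not called (log2 fold change 0.99, SE 0.40, padj = 0.132).

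Another 3 genes were called higher in the 24 × 32 °C controls and not in the LPS-challenged larvae, and whether the temperature effect differed between the treatments is the same test as the difference between LPS effects given further on, which called none. The opsin kinase gene grk1b was at 51.8, 51.9 and 38.6 CPM against 57.1, 92.5 and 98.8 CPM, a log2 fold change of 0.80 (SE 0.19, padj = 0.0128), and in LPS-challenged larvae at 46.9, 46.1 and 50.8 CPM against 51.1, 49.2 and 56.9 CPM, where the groups overlapped. The gene nr2e3, whose product is a nuclear receptor of rod precursors, was at 7.31, 8.95 and 7.64 CPM against 19.0, 16.5 and 15.8 CPM, with 1.10 (SE 0.26, padj = 0.0128), and in LPS-challenged larvae at 5.37, 8.05 and 10.8 CPM against 11.6, 14.2 and 7.50 CPM. The gene rlbp1a, which encodes a carrier of 11-cis-retinal, was at 28.3, 26.7 and 24.8 CPM against 36.6, 44.1 and 55.2 CPM, with 0.76 (SE 0.22, padj = 0.0377), and in LPS-challenged larvae at 25.9, 21.7 and 32.4 CPM against 34.9, 32.3 and 35.3 CPM. All 3 had separate groups in the controls, and all 3 calls were lost without certain single libraries. That of grk1b was lost without 24 × 24 °C control replicate 3 or 24 × 32 °C control replicate 2 or 3 (padj of 0.0691 to 0.084), and that of nr2e3 without 24 × 24 °C control replicate 3 or 24 × 32 °C control replicate 1 (0.0623 and 0.066) and with every library thinned to the smallest total (0.0687). That of rlbp1a was lost without any 1 of the 24 × 24 °C controls or without 24 × 32 °C control replicate 2 or 3 (0.0772 to 0.184), and with no filter on low counts (0.0579).

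The transcription factor gene with the symbol CRX and the ID ENSDARG00000043483 was at 54.3, 48.5 and 46.6 CPM in the 24 × 24 °C controls and at 34.3, 35.3 and 29.3 CPM in the 24 × 32 °C controls. The LPS values were 52.4, 63.5 and 68.3 CPM and 41.8, 46.9 and 31.8 CPM. The log2 fold changes were -0.59 (SE 0.16, padj = 0.025) and -0.60 (SE 0.16, padj = 0.0344), close to the 1.5-fold limit, and the groups did not overlap. The first call was lost without any 1 of the 6 control libraries (padj of 0.0517 to 0.1) and the second without 24 × 24 °C LPS replicate 2 or 3 or 24 × 32 °C LPS replicate 1 or 3 (0.0678 to 0.127). The first was also lost without both 32 × 24 °C libraries numbered 1, where the log2 fold change of -0.58 was under the 1.5-fold limit, and the second in the fit of the groups compared only (0.0931) and after thinning (0.133). The gene that bears the zebrafish name crx, a homeobox factor of photoreceptors, was at 95.5 to 125 CPM against 122 to 155 CPM in the controls, with a log2 fold change of 0.28 (SE 0.18). The gene with the symbol CRX was matched by that human symbol only, so it may be a paralog that is not on the list of names.

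The remaining calls between the challenge temperatures were made in the LPS-challenged larvae. The cone transducin subunits gnat2 (alpha), gnb3b (beta) and GNGT2 (gamma, ENSDARG00000103543) were lower at 24 × 32 °C than at 24 × 24 °C. GNGT2 was at 1151, 1143 and 1203 CPM against 649.7, 606 and 608 CPM, with a log2 fold change of -0.91 (SE 0.23, padj = 0.0309). The fold changes of gnat2 and gnb3b were -0.60 (SE 0.15, padj = 0.0283) and -0.60 (SE 0.17, padj = 0.0487) on the log2 scale. The green cone opsin gene opn1mw2 was higher, with 1.11 (SE 0.31, padj = 0.0471). Unlike those of arr3a and arr3b, these 4 calls depended on single libraries. Those of GNGT2, gnb3b and opn1mw2 were lost without any 1 of the 6 LPS libraries compared (padj of 0.0607 to 0.186), those of gnb3b and opn1mw2 also without some libraries of other groups (0.0511 to 0.0632), and that of gnat2 without any 24 × 24 °C LPS library or 24 × 32 °C LPS replicate 1 or 3 (0.0665 to 0.108). That of gnb3b was also lost with DESeq2 size factors (0.0532), that of GNGT2 with no filter on low counts (0.075), and that of opn1mw2 with no such filter (0.062) and after thinning (0.109). Over the list, 10 genes were called in LPS-challenged larvae, but 4, 3 and 4 without 24 × 24 °C LPS replicate 1, 2 and 3, and 5, 6 and 4 without 24 × 32 °C LPS replicate 1, 2 and 3. In the controls 8 were called, but 4 without 24 × 24 °C control replicate 3 and 5 without 24 × 32 °C control replicate 3.

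The next comparison set larvae incubated at 32 °C against larvae incubated at 24 °C, both challenged at 24 °C. Incubation temperature, age, sampling hour and the cooling from 32 °C to 24 °C cannot be told apart here. In the controls, 1 of the 50 genes was higher at 32 × 24 °C (2%, against 0.21% of all genes tested) and 1 was lower (2%, against 0.28%). In the LPS-challenged larvae the numbers were also 1 higher (2%, against 0.165%) and 1 lower (2%, against 0.089%). They were the cone opsin kinase gene grk7a and pde6ha, which encodes the inhibitory gamma subunit of the cone phosphodiesterase, each called in both sets of larvae. The control comparison uses the same 24 × 24 °C controls as the comparison of challenge temperatures.

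The kinase gene grk7a was at 116, 93.9 and 94.2 CPM in the 24 × 24 °C controls and at 208, 211 and 214 CPM in the 32 × 24 °C controls. In LPS-challenged larvae it was at 84.0, 81.3 and 82.7 CPM and 134, 180.1 and 204 CPM. The younger larvae were higher in every library, with log2 fold changes of 1.06 (SE 0.17, padj = 0.0063) in the controls and 1.06 (SE 0.17, padj = 0.014) in the LPS-challenged larvae. Its paralog grk7b was at no more than 6.93 CPM in any library and was not called.

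For pde6ha the direction was opposite. It was at 548, 484 and 641 CPM in the 24 × 24 °C controls and at 238, 309 and 308 CPM in the 32 × 24 °C controls, and in LPS-challenged larvae at 555, 695 and 784 CPM and 354, 275 and 280.1 CPM. It fell by 0.97 on the log2 scale in the controls (SE 0.17, padj = 0.00994) and by 1.16 in the LPS-challenged larvae (SE 0.17, padj = 0.00768), with no overlap between the groups. The catalytic subunit of the same enzyme, pde6c, had higher values at 32 × 24 °C, at 278, 236 and 244 CPM against 326, 328 and 348 CPM in the controls and 190.2, 223 and 249 CPM against 278, 331 and 349 CPM in LPS-challenged larvae. The groups of pde6c did not overlap, but it was not called, with log2 fold changes of 0.40 (SE 0.12, padj = 0.141) and 0.54 (SE 0.12, padj = 0.0652).

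Single libraries carried part of these calls. In the controls, grk7a was not called without 24 × 24 °C control replicate 2 (padj = 0.0563), nor pde6ha without 24 × 24 °C control replicate 3 (0.0657), so that 1 gene remained called in each case. In LPS-challenged larvae neither was called without 24 × 24 °C LPS replicate 2 (0.129 and 0.0645), 24 × 24 °C LPS replicate 3 (0.0888 and 0.0885) or 32 × 24 °C LPS replicate 3 (0.108 and 0.0919), nor grk7a in the fit of the groups compared only (0.0539). The number called there was 4 without 24 × 32 °C LPS replicate 1, and also 4 without both 32 × 24 °C libraries numbered 1, when arr3b and pde6c were called as well.

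The visual cycle gene rpe65a encodes the isomerase of the pigment epithelium that makes 11-cis-retinal and was not called in any comparison, although several of its groups did not overlap. It was at 69.1, 63.1 and 52.0 CPM in the 24 × 24 °C controls, 114, 127 and 149 CPM in the 32 × 24 °C controls and 36.9, 30.7 and 26.9 CPM in the 24 × 32 °C controls. In LPS-challenged larvae it was at 46.1, 49.3 and 35.9 CPM at 24 × 24 °C and 103, 83.4 and 156 CPM at 32 × 24 °C, again without overlap, and at 64.5, 21.9 and 14.99 CPM at 24 × 32 °C, where replicate 1 was far above the others. Against the 24 × 24 °C controls, the log2 fold change was 1.09 at 32 × 24 °C (SE 0.35, padj = 0.191) and -0.95 at 24 × 32 °C (SE 0.37, padj = 0.136). In the LPS-challenged larvae of 32 × 24 °C it was 1.36 (SE 0.36, padj = 0.164). Where the fit held only the groups compared, rpe65a was called in both control comparisons, and DESeq2 on all 18 libraries called it in the LPS-challenged larvae of 32 × 24 °C. The paper also lists rpe65a and grk7a as higher in the 32 × 24 °C controls than in the 24 × 24 °C controls. In the same comparison it lists as lower the gene here named pde6ha, under the name pde6h. In the 24 × 32 °C LPS larvae, summed CPM over 8 genes of pigment epithelium and pigment cells was likewise 323 in replicate 1 and 166 and 153 in replicates 2 and 3. That sum was 203 to 291 in the 24 × 24 °C controls and 431 to 463 in the 32 × 24 °C controls, and its part in the values of rpe65a was not tested.

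**Figure D3:**
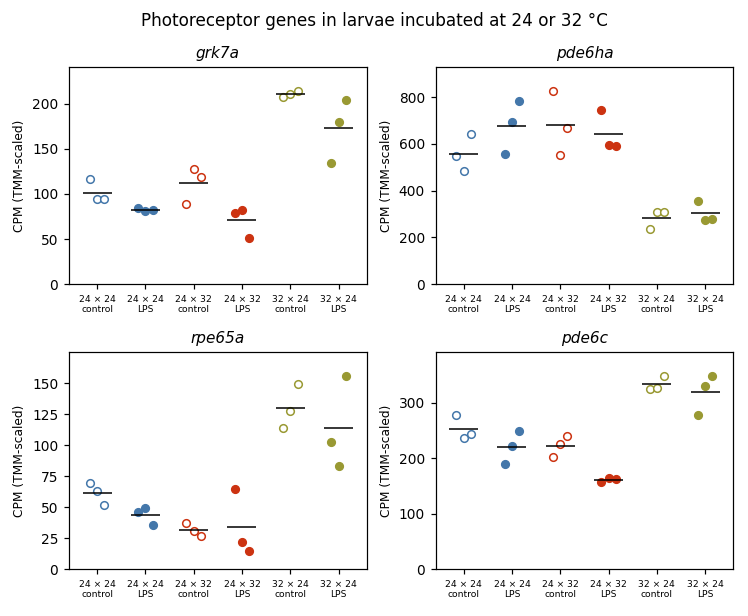
CPM (vertical axis, from 0) of grk7a, pde6ha, rpe65a and pde6c in each of the 18 libraries by group, with open circles for controls, filled circles for LPS-challenged larvae and a line at the mean of 3. The 32 × 24 °C libraries lie above the 24 × 24 °C libraries for grk7a and rpe65a and below them for pde6ha.

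Clock genes moved with incubation temperature in the same libraries. Of 32 clock genes tested, 5 were called higher and 2 lower in the 32 × 24 °C controls than in the 24 × 24 °C controls (against 0.21% and 0.28% of all genes tested). In the LPS-challenged larvae, 8 were called higher and 2 lower (against 0.165% and 0.089%). Among them were nr1d1, with a log2 fold change of 2.25 in the controls, per1a with 1.92, rorcb with -1.82 and cry3b with -1.73. The sampling hour differed between these larvae, and the 32 × 24 °C larvae had been cooled, as given above. The part of the hour or of the cooling in the values of grk7a, pde6ha and rpe65a was not tested. Between the challenge temperatures, where the hour was the same, 6 of the 32 clock genes were called higher and 2 lower in the controls (against 3.01% and 3.2% of all genes tested). In the LPS-challenged larvae of these temperatures, 1 was called higher and 3 lower (against 1.62% and 1.48%).

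The comparison of LPS with control at each combination asked how the challenge itself was seen in the photoreceptor genes. At 24 × 24 °C edgeR called none of the 50 (0.426% of all genes tested were called), and DESeq2 called none. The unadjusted edgeR p was under 0.05 for 4 of the 50 and for 1073 of all 15722 genes tested. At 32 × 24 °C edgeR also called none (0.0318% of all genes tested), and DESeq2 called none. The unadjusted edgeR p was under 0.05 for none of the 50 and for 846 of all genes tested. At 24 × 32 °C, 1 gene was higher in the LPS-challenged larvae (2%, against 1.36%) and 3 were lower (6%, against 0.592%). The lower ones were the cone genes gnat2, gnb3b and arr3b, and the higher one was opn1mw2. The same 24 × 32 °C LPS libraries also gave the calls of these genes against the 24 × 24 °C LPS larvae above. They came from survivors of the combination with the highest mortality, and the part of survival in these calls was not tested.

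The alpha subunit gene of cone transducin, gnat2, was at 608, 752 and 785 CPM in the 24 × 32 °C controls and at 379, 452 and 382 CPM in the LPS-challenged larvae. Every LPS library was below every control, and below the 642 to 802 CPM and 578 to 679 CPM of the 24 × 24 °C controls and LPS larvae. Its log2 fold change was -0.82 (SE 0.15, padj = 0.00792), a call that held without any 1 library. The beta subunit gene gnb3b was at 524, 677 and 627 CPM in the controls and 332, 371 and 329.9 CPM with LPS, also with no overlap. It fell by 0.82 on the log2 scale (SE 0.17, padj = 0.0127) and was not called without 24 × 32 °C control replicate 2 or 3 (0.0701 and 0.055). The gamma subunit gene GNGT2 (ENSDARG00000103543) was at 837, 1074 and 1097 CPM and 649.7, 606 and 608 CPM, groups that did not overlap, and was not called (log2 fold change -0.69, SE 0.23, padj = 0.121). For gnat1, the rod alpha subunit gene, the values were 107, 107 and 116 CPM and 90.1, 92.6 and 88.2 CPM. These groups did not overlap, and gnat1 was not called (log2 fold change -0.28). The beta subunit gene gnb1b overlapped, at 228, 286 and 313 CPM and 264, 292 and 274 CPM.

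The cone arrestin gene arr3b, lower at 32 °C already in the controls, was lower again with LPS at that temperature, by 0.67 on the log2 scale (SE 0.15, padj = 0.0198). This call was lost without 24 × 32 °C control replicate 1 or 3 or LPS replicate 2 or 3 (padj of 0.0544 to 0.0746) and in the fit of the groups compared only (0.0611). At 24 × 24 °C its LPS libraries, at 220.3, 227 and 225 CPM, were also below the controls, with a log2 fold change of -0.40 (SE 0.14) and no call (padj = 0.332). For grk7a the LPS libraries were below the controls at 24 × 32 °C, at 78.5, 82.6 and 51.6 CPM against 88.8, 128 and 118 CPM, with a log2 fold change of -0.66 (SE 0.18, padj = 0.0564), and DESeq2 called it. The enzyme gene pde6c was at 203, 225 and 240.3 CPM and 157, 165 and 163 CPM, with -0.46 (SE 0.12, padj = 0.0537).

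The green opsin gene opn1mw2 was at 7.09, 6.14 and 2.88 CPM in the 24 × 32 °C controls and at 16.3, 17.3 and 14.99 CPM in the LPS-challenged larvae. Each of these 3 LPS libraries was above all the other 15, which were at 2.81 to 8.90 CPM. Its log2 fold change was 1.56 (SE 0.34, padj = 0.0189), and it was not called without 24 × 32 °C control replicate 2 or 3 (0.0653 and 0.104). It lies in a cluster of similar green opsin genes that may share reads. The other cone opsins had negative log2 fold changes and none was called. The ultraviolet opsin gene opn1sw1 was at 1745, 2466 and 2390.4 CPM and 1179, 1941 and 1309.8 CPM, with -0.57 (SE 0.20, padj = 0.138), and the green opsin gene opn1mw1 at 514, 790.0 and 805 CPM and 357, 562 and 403 CPM, with -0.67 (SE 0.26, padj = 0.196). The blue opsin gene opn1sw2 was at 404, 522 and 588 CPM and 317, 432 and 280.0 CPM, with -0.56 (SE 0.23, padj = 0.227), where LPS replicate 2 lay among the controls.

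**Figure D4:**
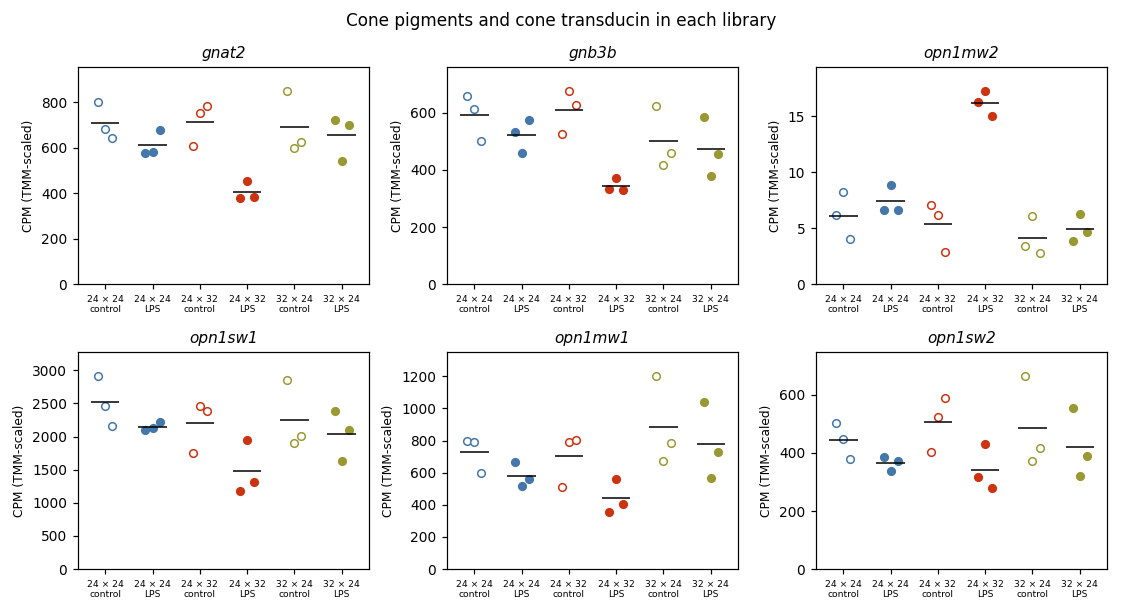
CPM (vertical axis, from 0) of 6 genes of cone pigments and cone transducin in each of the 18 libraries by group, with open circles for controls, filled circles for LPS-challenged larvae and a line at the mean of 3. In the 24 × 32 °C group (red), the LPS libraries lie below the controls for gnat2 and gnb3b and above them for opn1mw2, and they overlap the controls for opn1sw1, opn1mw1 and opn1sw2.

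Over the list at 24 × 32 °C, 38 of the 50 genes had a negative log2 fold change with LPS, and the median was -0.27, beside 0.00 over all genes tested. The median of the 22 cone genes was -0.51 and that of the 11 rod genes tested -0.19. At 24 × 24 °C the medians were -0.08 for cone and -0.08 for rod genes, and at 32 × 24 °C -0.03 and -0.13. Summed CPM of the cone genes was 6788, 8564 and 8762 in the 24 × 32 °C controls and 5178, 6240.5 and 5027 in the LPS-challenged larvae, without overlap. The rod genes summed to 644, 722 and 760.2 and 639.8, 699.9 and 647, values that overlap. The largest part of the rod sums was gnb1b, at 228 to 313 CPM in these controls and 264 to 292 CPM with LPS. How much of its RNA in whole larvae came from rods was not tested. Of the 11 rod genes tested, 7 had a negative and 4 a positive log2 fold change with LPS, and none was called. The rod gene gnat1 was lower with LPS without overlap, at 88.2 to 92.6 CPM against 107 to 116 CPM. The overlap of the rod sums thus does not show that the rod genes were unchanged, and a change in them was not shown either. All 8 other gene lists that were read had negative medians with LPS in this comparison too. Among their genes only cry5, of the clock list, and GNB5 were called, both lower. The median log2 fold change was -0.50 over 24 lens genes, -0.55 over 8 genes of pigment epithelium and pigment cells and -0.36 over 10 other opsins. It was -0.25 over 24 genes of bipolar, amacrine, horizontal and ganglion cells and -0.24 over 32 clock genes. Over 8 genes of Mueller glia, 75 other phototransduction and visual cycle genes and 4 pineal genes it was -0.15, -0.12 and -0.02. The pigment genes summed to 290 to 318 CPM in these controls and to 323, 166 and 153 CPM with LPS. LPS replicate 1 was thus above every control. Summed CPM of the lens genes was 14336 to 17463 in the controls and 8825 to 13038 in the LPS-challenged larvae, without overlap. The part of such a wider change, in the eye or beyond it, in the cone values was not tested. Cone genes summed to 7778 to 9696 CPM in the 24 × 24 °C controls and 7613 to 8275 CPM in the LPS larvae of that temperature, which overlap. The number of photoreceptor genes called at 24 × 32 °C was 4, but 2 and 1 without 24 × 32 °C control replicate 2 and 3, and 8 without both 32 × 24 °C libraries numbered 1, a pair that is in neither group compared; which step of the fit raised the number was not tested. The additional genes were then gnb3a, grk7a, GNGT2 (ENSDARG00000103543) and grk1b.

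**Figure D5:**
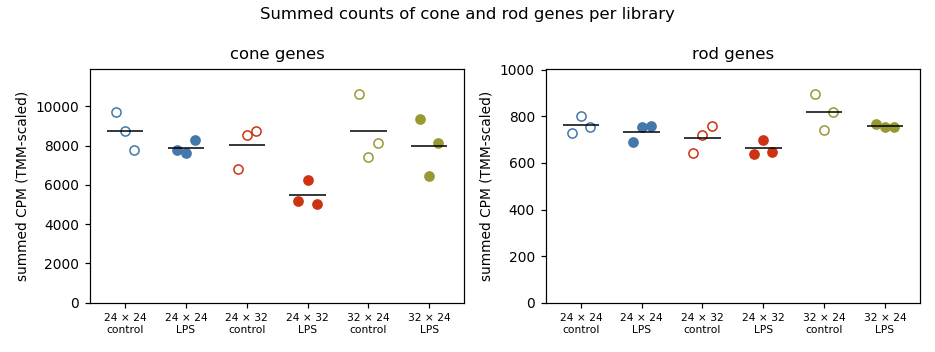
Summed CPM (vertical axes, from 0) of the cone genes (left) and the rod genes (right) of the list in each of the 18 libraries by group, with open circles for controls, filled circles for LPS-challenged larvae and a line at the mean of 3. The 24 × 32 °C LPS libraries have the lowest cone sums, 5027 to 6240 CPM against at least 6460.1 CPM elsewhere, whereas their rod sums, 639.8 to 699.9 CPM, overlap those of the 24 × 32 °C controls and of the 24 × 24 °C LPS larvae and lie below those of the other groups. The gene gnb1b makes the largest part of the rod sums, and how much of its RNA came from rods was not tested.

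Whether the LPS effect differed between the combinations was tested directly. For 24 × 32 °C against 24 × 24 °C edgeR called none of the 50 genes (0.00636% of all genes tested were called), and DESeq2 called none. The unadjusted edgeR p was under 0.05 for 7 of the 50 and for 1186 of all 15722 genes tested. The smallest adjusted p was that of gnat2, with a difference of -0.61 on the log2 scale (SE 0.21, padj = 0.52), and opn1mw2 differed by 1.25 (SE 0.46, padj = 0.547). For 32 × 24 °C against 24 × 24 °C edgeR called none (0% of all genes tested), and DESeq2 called none. The unadjusted edgeR p was under 0.05 for none of the 50 and for 404 of all genes tested. A difference between the combinations was thus not shown for any photoreceptor gene, and the standard errors of these differences ran from 0.16 to 0.66 on the log2 scale over both tests. The 24 × 24 °C libraries serve in both.

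In each remaining role, the uncalled gene with the highest mean CPM is given here. The disc rim gene PRPH2 (ENSDARG00000014840), whose product shapes outer segment discs, was at 166 to 244 CPM over the 18 libraries, and its log2 fold changes in the 7 comparisons between groups ran from -0.22 to 0.20. The channel gene cngb3.2, a beta subunit of the cone channel, was at 10.6 to 24.5 CPM, with log2 fold changes of -0.29 to 0.43. The recoverin gene rcvrn2 was at 124 to 228 CPM, with -0.24 to 0.30. The guanylate cyclase activator gene guca1c, a calcium sensor of cones, was at 35.0, 23.6 and 36.0 CPM in the 24 × 24 °C controls and 35.8, 68.8 and 64.7 CPM in the 32 × 24 °C controls, with a log2 fold change of 0.83 (SE 0.26, padj = 0.162) and overlapping groups. In LPS-challenged larvae it was at 36.9, 28.8 and 16.4 CPM and 52.0, 57.4 and 56.5 CPM, without overlap and without a call. The retinol-binding protein gene rbp4l was at 464, 393 and 392 CPM against 284, 272 and 361 CPM in the same controls, with -0.45 (SE 0.14, padj = 0.146), again separate and not called.

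Other genes of vision and the eye were read from lists that share none of the 55 genes. Of 75 other phototransduction and visual cycle genes tested, 6 were called higher and 1 lower in the 24 × 32 °C controls than in the 24 × 24 °C controls. Of all genes tested, 3.01% were called higher and 3.2% lower there. Among the 6 were clul1 (log2 fold change 1.64), LRAT (1.44), impg2b (1.09) and thrb (1.04). In the LPS-challenged larvae of the same temperatures 2 were higher and 2 lower (against 1.62% and 1.48% of all genes tested), with clul1 at 1.38 and rdh10a, a retinol dehydrogenase gene, at -1.23. In the 32 × 24 °C controls 4 were higher and none lower (against 0.21% and 0.28% of all genes tested). LPS at 24 × 32 °C gave none higher and 1 lower (against 1.36% and 0.592%), GNB5 at -0.62. Of 24 genes of bipolar, amacrine, horizontal and ganglion cells, none was called with LPS at 24 × 32 °C or between any controls, and their median log2 fold change with LPS at 24 × 32 °C was -0.25. In the 24 × 32 °C LPS larvae against the 24 × 24 °C LPS larvae, SLC32A1 of this list was called lower, at -0.64. Of 24 lens genes, 5 were called higher in the 24 × 32 °C controls (against 3.01% of all genes tested), with cryaa, the alpha crystallin, at 2.08. The pineal list held 4 tested genes, of which aanat2, the enzyme gene of melatonin synthesis, fell by 1.92 on the log2 scale in the 24 × 32 °C controls and had a log2 fold change of -1.94 in the LPS-challenged larvae. Its level was low, at a mean of 2.89 CPM over the 18 libraries. The median log2 fold change over the 4 pineal genes was positive, 0.52 in the controls and 0.28 in the LPS-challenged larvae. Summed CPM of the lens genes was 14336 to 17463 in the 24 × 32 °C controls and 10420 to 11320 in the 24 × 24 °C controls, and the part of lens or pineal RNA in the values of the photoreceptor genes was not tested.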

How the data were processed

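RNA of whole AB larvae (18 pools of 5) was sequenced, and the authors deposited raw counts per Ensembl gene without normalization. The processing notes name bcl2fastq, FastQC 0.11.5, cutadapt 1.12, TopHat2 2.1.0, SAMtools and HTSeq 0.6.1p1 with the build GRCz10, while the sources used here do not say whether counting used strand. Apart from strand, reads of near-identical paralogs may have been lost in counting. Groups were taken from the labels, and no library was left out. The experiment was run 3 times from different spawning fish, per the methods, but the sources used here do not say whether the 3 pools of a group, or libraries of one number, stand for those runs, so p-values measure the spread between these pools.

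Genes were matched by name in a gene table (35 genes, of which 22 by zebrafish and 13 by human ortholog symbol), in the study's supplementary tables (5), by elimination within a family symbol (6), as tandem copies (2) or as copies not resolved (7). A further listed name is not reported here. The members and gene lists were chosen with earlier results of these data known. Gene lengths of the build were not used here, so levels of different genes are not compared, and no sequences are shown.

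In edgeR 4.0.16 (R 4.3.3), filterByExpr with the 6 groups kept 15722 genes (10 counts, at the median library total, in at least 3 libraries, and 15 counts in all). TMM scaling and a robust quasi-likelihood fit of 6 group means over all libraries followed. CPM values are TMM-scaled. Values by library or as ranges, in some or all of the groups, are given for genes called in at least 1 comparison. The same holds for the uncalled gene of each role with the highest mean CPM. Of other lists at most 4 called genes are named. Others, such as rpe65a, grk7b, pde6h, sagb and the uncalled opsins, were named after their values were seen. Figures were drawn with matplotlib. The procedure was tested on simulated data. Alternatives were DESeq2 size factors, no filter, DESeq2 1.42.0, edgeR on the groups compared only, a block for the replicate number, thinning of every library to the smallest total, no fold change threshold, each library left out in turn, and, chosen after seeing the data, removal of both 32 × 24 °C libraries numbered 1 and a replicate block on the 6 libraries of 32 × 24 °C.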

Additional observations from a re-analysis of the deposited data

How the results depend on the processing

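With 3 pools a group, most calls sat near the threshold. Leaving out 1 library at a time, the number of photoreceptor genes called ranged from 1 to 5 for LPS at 24 × 32 °C, from 4 to 9 for the 24 × 32 °C controls, from 1 to 3 for the 32 × 24 °C controls, from 3 to 10 for the 24 × 32 °C LPS larvae and from 0 to 4 for the 32 × 24 °C LPS larvae, each against the 24 × 24 °C larvae where temperatures were compared. It stayed at 0 for LPS at 24 × 24 °C and 32 × 24 °C and for both differences between LPS effects. Without both 32 × 24 °C libraries numbered 1, the number was 8 for LPS at 24 × 32 °C and 4 for the 32 × 24 °C LPS larvae. For the latter, where 2 were called, DESeq2 called 4 and edgeR on the groups compared only called 1. No called gene changed direction under any alternative. In 587 of 676 refits of single calls the call was kept, and in 89 it was lost. Most libraries left out in turn were in neither group compared. The setting without a fold change threshold could not lose a call. The share kept therefore overstates how well the calls held without a library of the groups compared.

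Over all groups, libraries of one number were not shown to be pairs. Their deviations from the group means correlated at a median of 0.018 over 45 pairs of one number (range -0.235 to 0.559), against -0.014 over 90 pairs of different numbers. Of these, 17 of 45 and 15 of 90 were over 0.1. The control and LPS libraries of 32 × 24 °C did deviate together by number, at 0.559, 0.280 and 0.195. For numbers 1, 2 and 3, those of 24 × 32 °C were at -0.032, 0.182 and 0.160 and those of 24 × 24 °C at 0.117, -0.100 and 0.018. A replicate block on the 6 libraries of 32 × 24 °C called none of the photoreceptor genes, as the fit without it did. With the replicate block, 3 genes were called for the 32 × 24 °C LPS larvae, arr3b in addition, and the block left the number called in the other comparisons as it was. Summed CPM of the cone genes at 24 × 32 °C was lower with LPS by 0.55 on the log2 scale with TMM and with DESeq2 size factors and by 0.50 with library totals, and that of the rod genes differed by -0.10, -0.09 and -0.04. Between the 24 × 32 °C and 24 × 24 °C controls, the cone sum differed by -0.12 with TMM and -0.31 with library totals.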
